A study of Mus musculus with 31 samples.

Results

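The mitochondrial ribosomal protein genes are the nuclear genes whose symbol begins with Mrpl, for proteins of the large subunit, or Mrps, for proteins of the small subunit. They were picked by symbol alone, through the RefSeq accession of each array probe, and 78 of the 19902 named genes on the array met this rule. Each was read at its brightest probe as the log2 ratio of the Cy5 to the Cy3 signal, so that a value of -0.50 means a lower signal in Cy5. The products of Mrps30 and Mrps18a are known to sit in the large subunit despite their symbols, and that of Mrps36 is known as a component of the 2-oxoglutarate dehydrogenase complex. The 78 genes were therefore counted as 51 large subunit genes, 26 small subunit genes and Mrps36.

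Mitochondria carry their own ribosomes, which translate the few messages encoded by mitochondrial DNA, all of them for subunits of the respiratory chain or of ATP synthase. The ribosomal RNA is made inside the organelle, while every protein of the particle is encoded in the nucleus, made in the cytosol and imported. Some of these proteins have bacterial counterparts and others occur only in mitochondrial ribosomes. Neurons depend on respiration, which loss of oxygen and blood flow interrupts.

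Whole mouse genome arrays were hybridized with RNA from the forebrain of NMRI mouse pups treated on postnatal day 5, each sample being a pool of 6 right or ipsilateral hemispheres. Experiment 1 compared pups given MgSO4 at 600 mg/kg (Cy5) with control pups (Cy3) on 4 arrays each at 3, 12 and 24 h and on 7 arrays at 6 h. Experiment 3 compared hypoxia-ischemia (HI, ligature of the right carotid artery followed by hypoxia, in Cy5) with naive controls (Cy3), with 3 arrays per time, 3 or 12 h (RV PBS in the plots). Experiment 2 held 3 arrays at 3 h and 3 at 12 h that set MgSO4 followed by HI (MgHI) against a reference (RV Mg in the plots). For Experiment 1 the labels give subcutaneous injection and PBS controls and the methods intraperitoneal injection and untreated controls, and for the Cy5 samples of Experiment 3 one label names MgSO4 against the title and the source, so they were taken as HI alone. In Experiment 2 the channel that held MgHI could not be settled from the labels, the methods and the figures, where the sample titles name uninjured MgSO4 pups as the reference and the methods name brains exposed to HI. No dye was swapped, and so a dye effect on a probe and a difference between the samples cannot be told apart.

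Between 45.2% and 69.7% of spots were well above background in Cy3 and between 54.4% and 70.2% in Cy5, and no spot was saturated. The injury labels were checked on 6 genes of the acute response. All 6 were higher in HI at 3 h, among them Fos, an immediate early gene, at 5.52 and the chemokine gene Cxcl10 at 4.39 (mean log2 ratios, n = 3). In Experiment 2 the same genes were also high in Cy3, where Fos exceeded the Cy3 controls of Experiment 3 by 5.37 (log2 difference, adjusted p = 0.0001, limma) at 3 h, while Cy5 exceeded the Cy5 samples of Experiment 3 by only 0.04. Both channels of Experiment 2 thus carried the injury genes at 3 h, against the titles, and its ratios are given below only by channel. As a check of the tissue, the defining markers of neurons (6 genes), astrocytes (5), the oligodendrocyte lineage (6), microglia (6) and endothelial cells (4) were above background and tested in every group.

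Of the 78 genes, 77 were tested in every group and 76 were well above background in both channels on all 31 arrays. Mrpl21 was well above background on only 3 arrays in Cy3 and on 0 in Cy5, and was not tested. The brightest probes were those of Mrpl33, Mrpl20 and Mrpl11, and the dimmest those of Mrpl1, Mrpl35 and Mrpl21, an order of probes and not of transcripts. The plot of all members by array gives the ratios on which the comparisons rest.

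**Figure D1:**
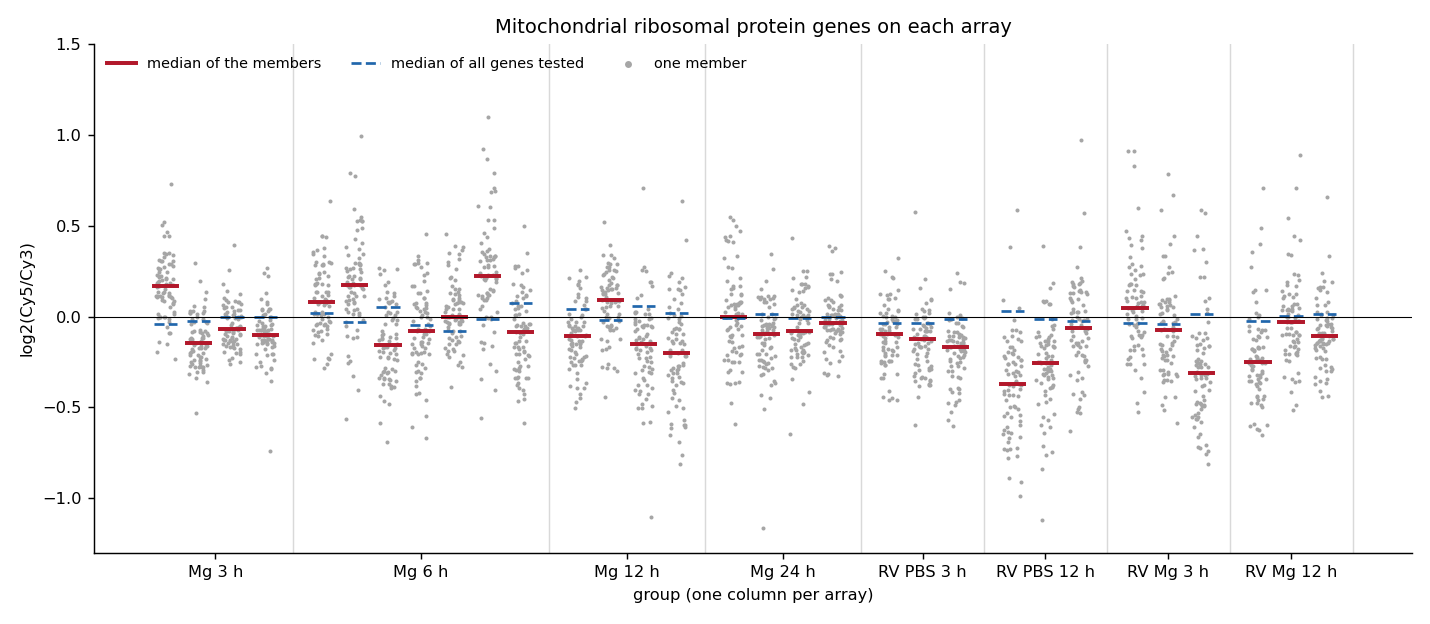
Log2 ratio of Cy5 to Cy3 (vertical axis) of the 77 tested mitochondrial ribosomal protein genes on each of the 31 arrays, 1 column per array, grouped by treatment and time. Grey dots are single genes, the red line is their median and the dashed blue line the median of all genes tested; the red line lies below 0 on all 6 RV PBS arrays (HI against control) and on either side of 0 among the MgSO4 arrays.

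HI was followed at 3 h by slightly lower ratios across the mitochondrial ribosomal protein genes. Of the 77 genes 64 lay below 0, with a median of -0.13 against -0.03 over all genes tested, and the medians of the 3 arrays were -0.09, -0.12 and -0.17. None was called at an adjusted p under 0.05 together with a 1.5-fold change, a rule that 3.81% of all genes met. At the adjusted p alone 15 genes fell and 0 rose, where 8.70% of all genes fell and 6.24% rose. Of the 15 that fell, 12 belonged to the large and 3 to the small subunit, and each lay below 0 on 3 of 3 arrays. The test picked them on these same arrays, so this agreement adds no support. In a pooled hemisphere, fewer cells of a type and less RNA per cell cannot be told apart.

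Among the large subunit genes that fell at 3 h, Mrpl49, for a protein found only in mitochondrial ribosomes, had the lowest mean. Its log2 ratios on the 3 arrays were -0.45, -0.60 and -0.57, with a mean of -0.54 ± 0.08 (SD, n = 3, adjusted p = 0.0201). These values are from its brightest probe, and its second probe averaged 0.06 at 3 h. Mrpl53, also specific to mitochondria, read -0.46, -0.36 and -0.53 (adjusted p = 0.0270). At these probes both genes were lower in HI on each array, which their choice by p on these arrays favours. Mrpl14, whose product lies at the face between the subunits, read -0.41, -0.38 and -0.46 (adjusted p = 0.0264). Mrpl33, for a small protein with a bacterial counterpart, read -0.32, -0.37 and -0.49 (adjusted p = 0.0317). Mrpl11, for the base of the stalk that translation factors contact, read -0.32, -0.26 and -0.40 (adjusted p = 0.0391). None of these 3 genes, also chosen by p on these arrays, had an array near 0. The other large subunit genes that fell were Mrpl41, Mrpl36, Mrpl52, Mrpl2, Mrpl23, Mrpl57 and Mrpl15, with means from -0.40 to -0.26, and the second probe of Mrpl41 averaged -0.08.

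Of the small subunit, Mrps25, Mrps16 and Mrps15 fell. Mrps25, for a protein specific to mitochondrial ribosomes, read -0.34, -0.38 and -0.48 at 3 h (mean -0.40 ± 0.07, adjusted p = 0.0295), and its second probe averaged -0.12. Mrps16 averaged -0.35 ± 0.05 (adjusted p = 0.0344) and Mrps15 -0.29 ± 0.08 (adjusted p = 0.0482). Mrps15 also averaged -0.26 over the 19 MgSO4 arrays and lay below 0 on 30 of all 31 arrays, so its low ratio was not particular to HI. Most small subunit genes lay just under 0, with a median of -0.13 and 23 of 26 below 0. Mrps12, for a protein of the decoding centre, averaged -0.16, Mrps7 -0.12 and Mrps2 0.06, none of which passed the test. The adjusted p of the 15 genes lay between 0.0201 and 0.0494, and none passed when any 1 of the 3 arrays was left out, whichever it was, where 1.67% to 4.75% of all genes still passed. None passed either without the filter on dim probes, which adds tests of probes near background.

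At 12 h after HI the ratios were spread further below 0. Of the 77 genes 69 lay below 0, with a median of -0.23 against 0.00 over all genes tested, and the array medians were -0.37, -0.25 and -0.06. The third array thus lay well above the other two. None was called and none passed at the adjusted p alone (limma; 19 lower and 0 higher at an unadjusted p under 0.05), and 2 of all genes, 0.0137%, were called in this group. The share of all genes at the unadjusted p is not given, here or for such counts below. Those counts thus cannot show an excess among the members. The smallest adjusted p belonged to Mrps25 (0.0776), Mrpl49 (0.0777) and Mrpl33 (0.0792). With replicate 1 left out 1 member was called, and with replicate 3 left out 10 members were called. Without replicate 3, 14 members passed at the adjusted p, a smaller share than the 23.2% of all genes that passed. The shares of all genes called in these runs are not given here.

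Of the genes that fell at 3 h, several lay lower at 12 h, when they did not pass the test. Mrpl49 read -0.99, -0.84 and -0.53 at 12 h, with a mean of -0.78 ± 0.23 (SD, n = 3), where its second probe averaged -0.09. Mrps25 read -0.62, -0.76 and -0.63, with a mean of -0.67 ± 0.08, where its second probe averaged 0.41. At the brightest probes the arrays of Mrps25 did not overlap between 3 and 12 h, and those of Mrpl49 did. Mrpl33 read -0.72, -0.74 and -0.51 at 12 h, and Mrpl53 -0.91, -0.71 and -0.43. Mrpl28, for a protein with a bacterial counterpart, read -0.21, -0.05 and -0.10 at 3 h and -0.73, -0.55 and -0.50 at 12 h. Its arrays did not overlap between the time points, and the difference of -0.48 between them had an adjusted p of 0.153 (limma contrast). Mrpl28 and Mrps25 were named for a small p, and the share of all genes without overlap was not counted. Mrpl36 went the other way, from -0.46, -0.44 and -0.30 at 3 h to -0.11, -0.10 and 0.03 at 12 h, without passing the test of the difference (0.34, adjusted p = 0.229).

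None of the 77 genes differed between 12 h and 3 h after HI by either rule (limma; 1 higher and 2 lower at an unadjusted p under 0.05), and 0% of all genes did. The third gene by p was Mrps25, with a difference of -0.27 (adjusted p = 0.284). In Experiments 2 and 3 the 3 h arrays lay on slides 7 and 8 and the 12 h arrays on slides 8 and 9. Time and slide thus cannot be fully told apart. Within slide 8, with 1 HI array of each time, the differences were -0.63 for Mrpl28, -0.15 for Mrps25 and 0.19 for Mrpl36. The few members above 0 on all 3 arrays at 12 h were Mrps2, which averaged 0.24, and Mrpl39, which averaged 0.14. The heat map of group means sets these genes beside the other groups.

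**Figure D2:**
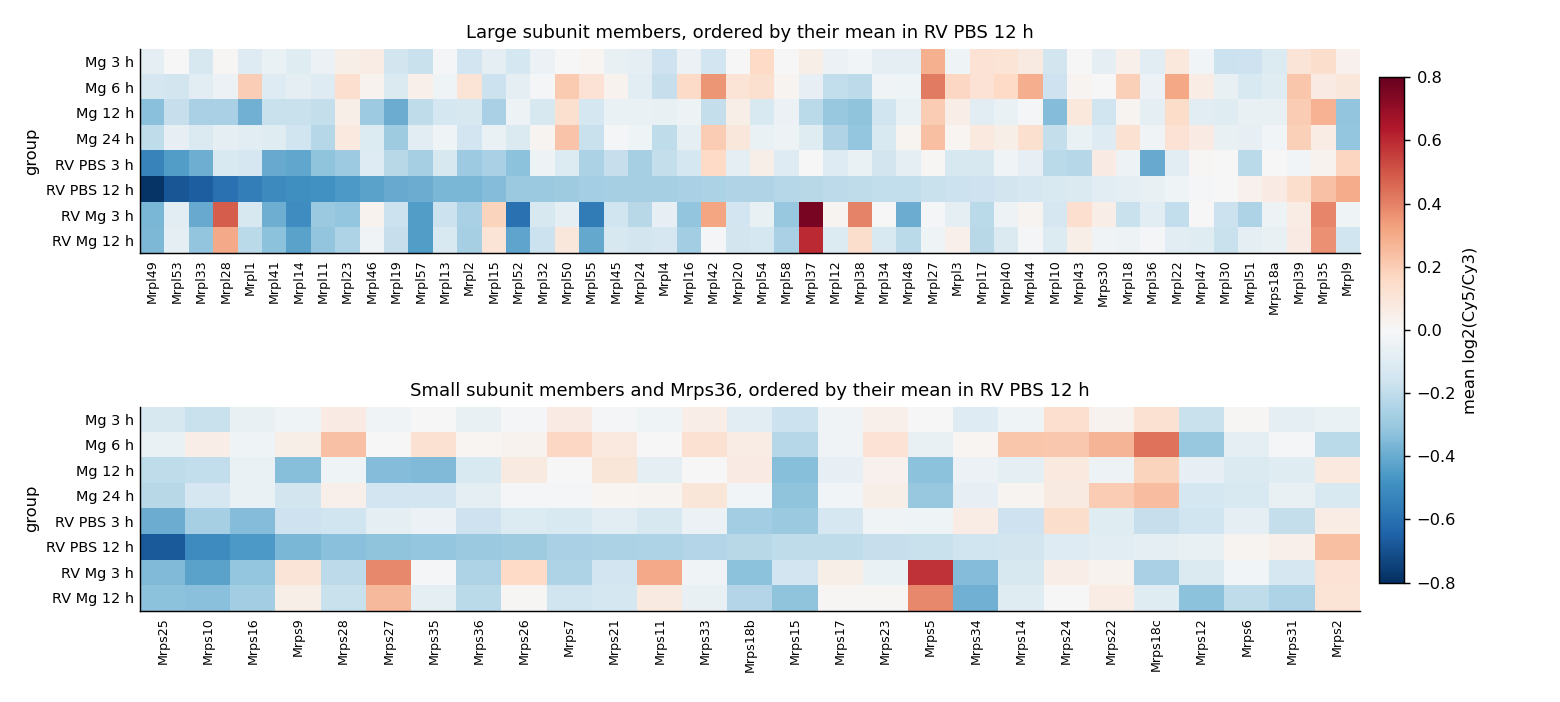
Mean log2 ratio of Cy5 to Cy3 (colour, blue below 0 and red above 0) of each tested member in the 8 groups, large subunit genes in the upper panel and small subunit genes with Mrps36 in the lower, ordered by their mean in RV PBS 12 h (HI against control). Both RV PBS rows are mostly blue, Mrpl37 and Mrps5 stand out in red in the RV Mg rows, and the Mg rows are pale.

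The rest of the mitochondrial translation system gave medians of similar size. At the adjusted p alone, 8.7% of all genes fell and 6.24% rose at 3 h. Of the 5 subunit genes without the prefix 2 fell at 3 h, Aurkaip1 (-0.42, adjusted p = 0.030) and Chchd1 (-0.30, adjusted p = 0.046), while Dap3, a small subunit gene, averaged -0.01. Of the 23 ribosome assembly genes tested 2 fell, the RNA methyltransferase gene Mrm2 and Ngrn, a share close to that of all genes. Of the 12 translation factor genes 5 fell and 0 rose, among them Mtfmt, for the enzyme that formylates the initiator tRNA (-0.54), and Mrrf, for the ribosome recycling factor (-0.38). Tufm, for the elongation factor that delivers tRNA, averaged 0.00. Of the 19 mitochondrial tRNA synthetase genes 4 fell, led by Pars2 (-0.47). The list medians at 3 h were -0.11, -0.14, -0.20 and -0.18 in this order.

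Of 11 genes for the expression of mitochondrial DNA 3 fell at 3 h, where 8.7% of all genes did. Tfam, which packages mitochondrial DNA and starts its transcription, averaged -0.38 (adjusted p = 0.033) and Tefm, the transcription elongation factor, -0.45. Polrmt, the mitochondrial RNA polymerase, averaged -0.24 and did not pass (adjusted p = 0.114), and Lrpprc, which stabilizes mitochondrial messages, averaged 0.16. Among 8 listed genes that regulate nuclear genes for mitochondria, Esrra, a nuclear receptor, fell (-0.44, adjusted p = 0.023) and Ppargc1a, a coactivator, rose (0.30, adjusted p = 0.041).

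Nuclear genes of the respiratory chain had medians of -0.12 at 3 h and -0.24 at 12 h, with 65 and 71 of 83 genes below 0. Of these, 12 fell at 3 h and 0 rose, where 8.7% of all genes fell and 6.24% rose. Cytosolic ribosomal protein genes had medians of 0.02 and 0.04, with 37 and 32 of 83 genes below 0, and at 3 h 7 rose and 3 fell. The mitochondrial ribosomal protein genes lay beside the former list, at -0.13 and -0.23. No test between lists was made.

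**Figure D3:**
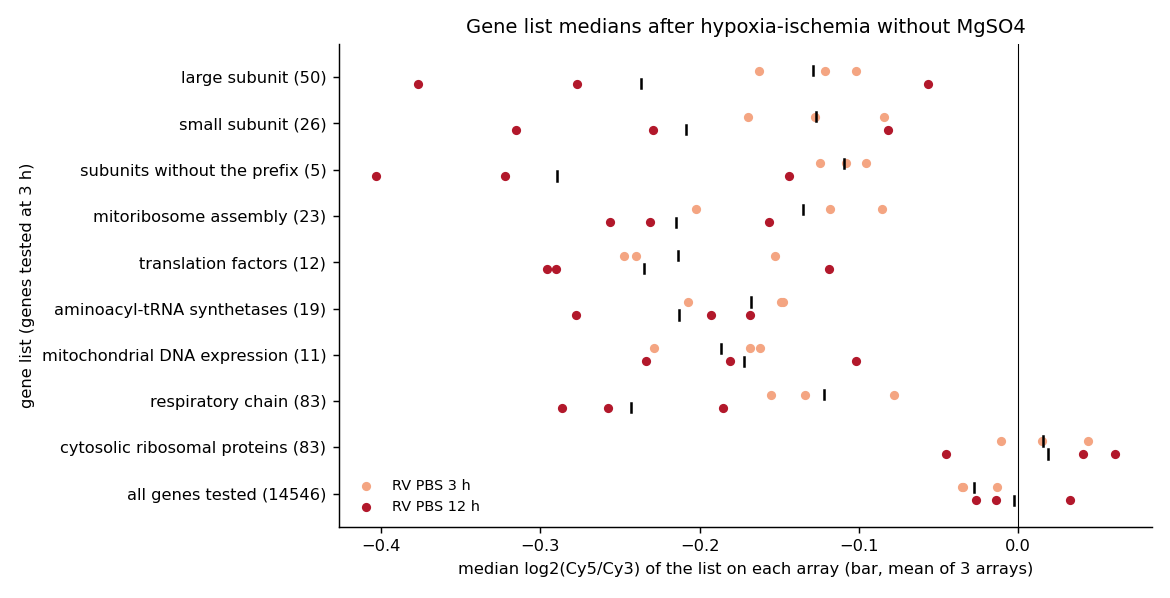
Median log2 ratio of Cy5 to Cy3 (horizontal axis) of each gene list on the arrays of HI against control at 3 h (RV PBS 3 h, light) and 12 h (RV PBS 12 h, dark), 1 point per array with a black bar at the mean of 3 arrays. Both subunits and the respiratory chain genes lie below 0 on every array, and the cytosolic ribosomal protein genes lie on either side of 0.

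Single cell markers moved in the same hemispheres, not always with their lists. At 3 h Mbp, a myelin gene, rose by 0.61 and Snap25, a neuronal gene, by 0.35 (means of 3 arrays). In the neuronal and the oligodendrocyte lists 3 of 6 genes lay below 0, so these genes do not stand for their lists. P2ry12, a microglial gene, fell by 0.37. The list medians at 3 h were 0.00 for neurons (3 of 6 below 0), 0.11 for astrocytes (2 of 5), 0.00 for the oligodendrocyte lineage (3 of 6), -0.10 for microglia (6 of 6) and -0.09 for endothelial cells (3 of 4). The summed level of each list differed from control by -0.11 to 0.06, by -0.20 to -0.08, by 0.05 to 0.18, by -0.21 to -0.07 and by -0.28 to -0.05 over the 3 arrays, in the same order. At 12 h the medians were 0.09, 0.24, 0.44, -0.02 and 0.35, and choroid plexus genes stood at 0.77. The part of cell makeup in the ratios of the mitochondrial ribosomal protein genes was not tested.

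Promoters of several members are shown because the genes lay on one side of 0 together in HI, and because they carry sequence motifs that many nuclear genes for mitochondria share. RefSeq promoter windows (build GRCm38.p6, 250 bases before to 50 after each start) existed for 69 of the 78 genes, in 75 windows. An ETS motif, CCGGAAG or its reverse complement CTTCCGG, was in 26 of 75 windows, or 34.7%, against 8.86% of 32851 windows of all genes. The NRF1 motif, GCGCA and GCGC with any 1 base between, was in 17.3% of member windows against 4.6% of all, and the YY1 motif AANATGGCG in 14.7% against 2.38%, each searched on both strands. Together 42 members held at least 1 of these and 8 held 2 or more. The windows of genes that fell in HI at 3 h can be read below beside that of Mrpl37, which was higher in Cy5 in Experiment 2, with the motif in capitals. Mrpl33 lies at chr5:31613701-31614000 (plus strand), Mrpl53 at chr6:83108858-83109157 (plus strand), Mrpl14 at chr17:45686099-45686398 (plus strand), Mrpl52 at chr14:54426659-54426958 (plus strand) and Mrpl37 at chr4:107066817-107067116 (minus strand), and each is printed 5′ to 3′ along its gene.
Mrpl33 (ETS): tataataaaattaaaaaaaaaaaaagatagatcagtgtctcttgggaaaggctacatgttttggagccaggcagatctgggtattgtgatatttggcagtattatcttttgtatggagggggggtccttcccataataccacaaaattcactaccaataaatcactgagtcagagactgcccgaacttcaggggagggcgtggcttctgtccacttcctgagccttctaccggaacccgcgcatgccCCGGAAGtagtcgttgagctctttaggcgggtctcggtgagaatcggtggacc
Mrpl53 (ETS, both orientations): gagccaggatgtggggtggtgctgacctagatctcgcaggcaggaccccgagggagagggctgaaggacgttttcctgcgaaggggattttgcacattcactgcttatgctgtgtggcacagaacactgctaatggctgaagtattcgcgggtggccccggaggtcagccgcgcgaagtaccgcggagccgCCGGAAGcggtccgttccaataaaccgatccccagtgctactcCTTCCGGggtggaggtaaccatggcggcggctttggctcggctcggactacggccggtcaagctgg
Mrpl14 (NRF1): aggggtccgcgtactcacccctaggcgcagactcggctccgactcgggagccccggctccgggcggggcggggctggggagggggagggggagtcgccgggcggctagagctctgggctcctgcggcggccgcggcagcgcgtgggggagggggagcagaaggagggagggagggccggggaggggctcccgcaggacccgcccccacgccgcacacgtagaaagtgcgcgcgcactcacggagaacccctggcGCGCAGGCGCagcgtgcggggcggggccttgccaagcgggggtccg
Mrpl52 (ETS, 2 matches): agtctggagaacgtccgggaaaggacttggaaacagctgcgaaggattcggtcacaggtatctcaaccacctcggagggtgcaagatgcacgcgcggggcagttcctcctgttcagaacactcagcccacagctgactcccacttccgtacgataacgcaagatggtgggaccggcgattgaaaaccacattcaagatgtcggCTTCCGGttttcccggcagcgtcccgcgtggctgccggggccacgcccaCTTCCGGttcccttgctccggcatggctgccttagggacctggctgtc
Mrpl37 (YY1): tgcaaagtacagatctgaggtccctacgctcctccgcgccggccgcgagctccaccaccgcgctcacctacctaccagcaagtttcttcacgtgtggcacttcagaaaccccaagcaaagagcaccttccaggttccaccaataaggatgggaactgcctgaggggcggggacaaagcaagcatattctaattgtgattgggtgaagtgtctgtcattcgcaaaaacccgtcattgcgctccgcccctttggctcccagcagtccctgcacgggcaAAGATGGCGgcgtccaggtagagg

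In Mrpl33 the ETS match began 3 bases before the start, in Mrpl52 at base 3 after it and again 47 bases before it, and in Mrpl14 the NRF1 match began at base 5. The motifs did not mark the genes that fell at 3 h: of the 14 with a window, 5 held the ETS, 2 the NRF1 and 1 the YY1 motif, and of the 55 other members with a window 21, 11 and 10 did. A match describes letters in the window and not bound protein.

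MgSO4 alone gave no call among these genes at any time. None of the 77 was called or passed at the adjusted p at 3, 6, 12 or 24 h (limma), where 0%, 0.0365%, 0% and 0.00714% of all genes were called. At an unadjusted p under 0.05, 2, 10, 6 and 7 members passed in this order, and the shares of all genes at that rule are not given. The group medians were -0.03, 0.02, -0.07 and -0.06 against -0.01, 0.00, 0.02 and -0.01 over all genes. Arrays of a group differed in sign, with medians from -0.15 to 0.17 at 3 h, from -0.15 to 0.22 at 6 h, from -0.20 to 0.09 at 12 h and from -0.09 to 0.00 at 24 h. Of the 6 h arrays, replicates 3 and 7 correlated with replicates 1, 2 and 6 at -0.42 to -0.22 over all probes, and without both of them 6 members passed at the adjusted p, where 17.2% of all genes did. Over the members alone these correlations were 0.08 to 0.36. Replicates 3 and 7 were the arrays of this group on slide 5. Replicates 2 and 6, on slide 4, correlated at 0.86 over all probes and 0.96 over the members. Arrays of 1 slide may thus not be independent.

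Mrpl27, for a protein at the peptidyl transferase centre, had the smallest p at 3 and 6 h. It read 0.44, 0.19, 0.26 and 0.24 at 3 h (mean 0.28, adjusted p = 0.478), and between 0.26 and 0.69 with a median of 0.39 over the 7 arrays at 6 h (mean 0.41 ± 0.15, adjusted p = 0.136). All 11 of these arrays lay above 0, while at 12 h 1 of 4 arrays read -0.01. In HI the same gene averaged 0.01 at 3 h. At 6 h Mrps18c (0.43, adjusted p = 0.191) and Mrpl22, for a protein lining the exit tunnel (0.31, adjusted p = 0.215), also lay above 0 on 7 of 7 arrays.

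At the later times the leading genes lay below 0. At 12 h these were Mrpl19 (-0.40), Mrps15 (-0.34) and Mrpl10, for the stalk (-0.34), all with an adjusted p of 0.305. At 24 h they were Mrps15 (-0.32, adjusted p = 0.355), Mrps5 (-0.30) and Mrpl19 (-0.28). Mrps15 was below 0 on 19 of 19 MgSO4 arrays and on 30 of all 31 arrays. Cy5 was the treated sample on all 19 MgSO4 arrays and the HI sample in Experiment 3. Treatment or injury and dye thus cannot be told apart for this gene. At 3 h the other leading genes were Mrps12 (-0.18) and Mrpl4, for a protein of the exit tunnel (-0.17), each below 0 on 28 of 31 arrays. No gene had one sign on all 31.

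The differences between MgSO4 time points gave no call either. All 3 h arrays were on slides 1 and 2, which held no other group, so differences from 3 h cannot be told apart from slide. Between 6 and 3 h, 12 and 3 h, 12 and 6 h, and 24 and 12 h, 0 members passed by either rule (limma), and 2, 1, 8 and 0 had an unadjusted p under 0.05, while 0%, 0%, 0.00714% and 0% of all genes were called. Shares of all genes at the unadjusted p are not given. The leading differences were Mrpl2 (0.27, adjusted p = 0.999) between 6 and 3 h, Mrps5 (-0.32, adjusted p = 0.855) between 12 and 3 h, Mrps35 (-0.47, adjusted p = 0.357) between 12 and 6 h, and Mrpl42 (0.39, adjusted p = 0.995) between 24 and 12 h. From 6 to 12 h 65 of 77 members had a difference below 0, with a median of -0.11, and no value over all genes is given beside it. Within the 4 slides that held both times this median was -0.43, -0.05, -0.04 and 0.01, so 1 slide carried most of it.

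In Experiment 2 a pair of large subunit genes was called at 3 h, in opposite directions. Mrpl37, for a protein specific to mitochondrial ribosomes, read 0.91, 0.79 and 0.57 (mean 0.76 ± 0.17, SD, n = 3, adjusted p = 0.0161) and was higher in Cy5. Mrpl52 read -0.48, -0.58 and -0.72 (mean -0.59 ± 0.12, adjusted p = 0.0234) and was higher in Cy3. Mrpl37 was also called with any 1 array left out, while Mrpl52 lost its call without replicate 2 (-0.60) or 3 (-0.53), and without the filter on dim probes neither was called. Without replicate 1, 4 members were called and 15 passed at the adjusted p, where 18.3% of all genes passed, a share near that of the members. The share of all genes called in that run is not given here. With all 3 arrays 1 member was called in each direction, where 4.01% of all genes were called higher and 1.45% lower in Cy5. At the adjusted p alone, which 6.25% of all genes passed as higher and 2.69% as lower in Cy5, Mrps5, for a protein near the entry of the message, was also higher in Cy5, at 0.47, 0.67 and 0.59 (adjusted p = 0.0235). Mrpl55 and Mrpl14 were lower in Cy5, with means of -0.56 (adjusted p = 0.0288) and -0.49 (adjusted p = 0.0426). In HI against control at 3 h Mrpl37 averaged 0.01 and Mrps5 -0.04, while Mrpl52 averaged -0.33 and Mrpl14 -0.42.

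**Figure D4:**
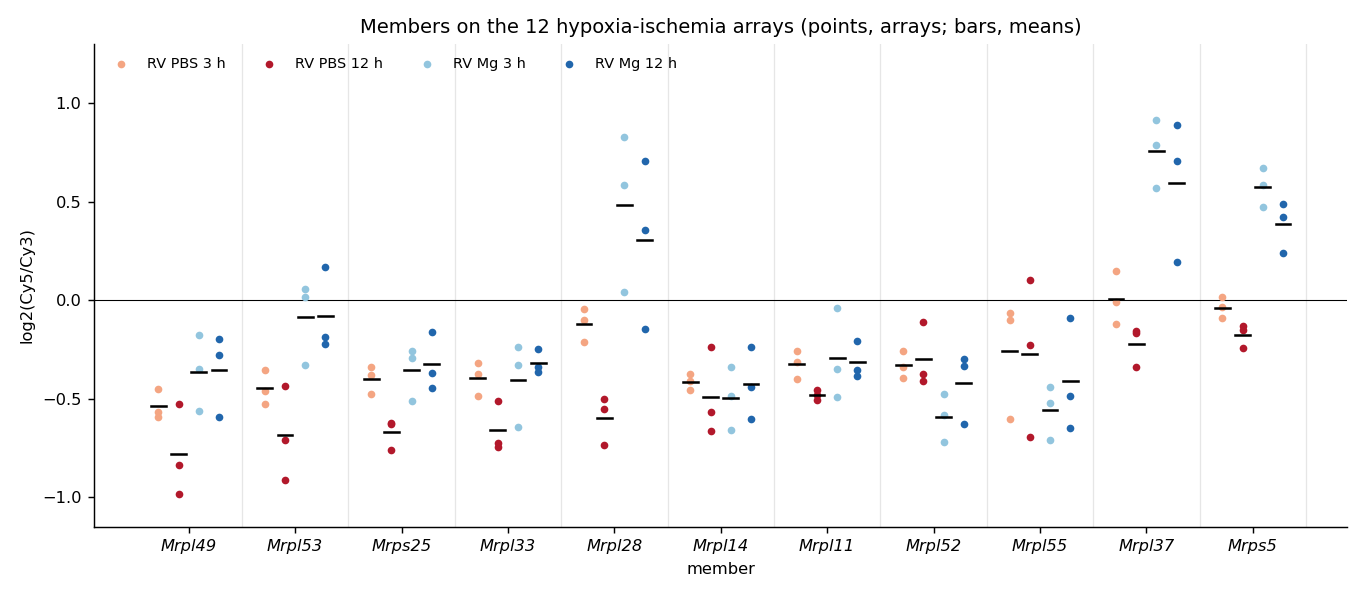
Log2 ratio of Cy5 to Cy3 of 11 members on each array of Experiment 3 (RV PBS, red) and Experiment 2 (RV Mg, blue) at 3 h and 12 h, 1 point per array with a black bar at the group mean. Mrpl49, Mrpl53, Mrps25 and Mrpl33 are lowest in RV PBS 12 h, and Mrpl37 and Mrps5 are above 0 on all 6 RV Mg arrays.

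At 12 h in Experiment 2 none of the 77 genes was called (limma; 3 higher and 15 lower at an unadjusted p under 0.05), as was 0% of all genes. The share of all genes at the unadjusted p is not given. The smallest adjusted p were those of Mrpl57 (-0.45, 0.0968), Mrps34 (-0.38) and Mrpl14 (-0.43, 0.108). Mrpl37 read 0.71, 0.89 and 0.19, and Mrps5 0.49, 0.42 and 0.24, so both lay above 0 on all 6 arrays of the experiment. The medians over members were -0.13 at 3 h and -0.12 at 12 h, and the array medians ran from -0.31 to 0.05 at 3 h. With each array centred on its median, the members stood at -0.14 and -0.08, against -0.05 and 0.04 over all genes tested. No member differed between 12 and 3 h (limma; 0 at an unadjusted p under 0.05), with Mrpl38 leading at -0.26 (adjusted p = 0.999), and 0% of all genes did.

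The single channels of Experiment 2 were then set against those of Experiment 3. Against the Cy5 samples of Experiment 3 at 3 h, the Cy5 samples of Experiment 2 were higher for Mrps5 by 0.60 (SE 0.08, adjusted p = 0.0088) and for Mrpl37 by 0.68 (SE 0.10, adjusted p = 0.0124), the 2 members called, where 4.18% of all genes were. Mrps5 read -0.16, -0.22 and -0.24 in Experiment 2 and -0.85, -0.74 and -0.83 in Experiment 3 (log2 signal minus the 75th percentile of the array). Mrpl37 read 0.41, 0.16 and 0.33 against -0.43, -0.45 and -0.27. The groups did not overlap for either gene, both named because they were called, and lack of overlap was not counted over all genes. Within slide 7 the differences were 0.61 and 0.72, and within slide 8 0.60 and 0.60. With the replicate number as a block 21 of 77 members passed at the adjusted p, where 31.3% of all genes did, and without it 2 members passed, where 752 of all 14581 genes tested passed as higher and 502 as lower. Without replicate 1 of either experiment 0 members were called, with differences of 0.58 for Mrps5 and 0.66 or 0.63 for Mrpl37, and without any other array both genes were.

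In Cy3 no member was called at 3 h, where 0.28% of all genes were (limma; 0 higher and 1 lower at an unadjusted p under 0.05). Mrpl36 led, at -0.46 (adjusted p = 0.185). At 12 h no member was called in Cy3 (0 higher and 12 lower at an unadjusted p under 0.05) or in Cy5 (0 and 3), and 0% of all genes were called in either. For these unadjusted counts the shares of all genes are not given. Mrpl49 (-0.82), Mrps27 (-0.58) and Mrps25 (-0.65) led in Cy3, all with an adjusted p of 0.350. Mrpl49, named for its small p here, read 1.31, 1.82 and 2.12 in Cy3 of Experiment 2. It read 2.62, 2.58 and 2.50 in the Cy3 controls of Experiment 3. The groups did not overlap, but lack of overlap was not counted over all genes. Within slide 8 the difference for Mrpl49 was -1.31, and within slide 9 it was -0.57. The median over members was -0.26 in Cy3 at 12 h, with 65 of 77 below 0, and -0.40 and -0.20 within the 2 slides. Medians over all genes are not given here for the single channels. In Cy5 at 12 h Mrps12 led, at -0.48 (adjusted p = 0.325), and the median was -0.16, or -0.022 without replicate 1 of Experiment 2.

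**Figure D5:**
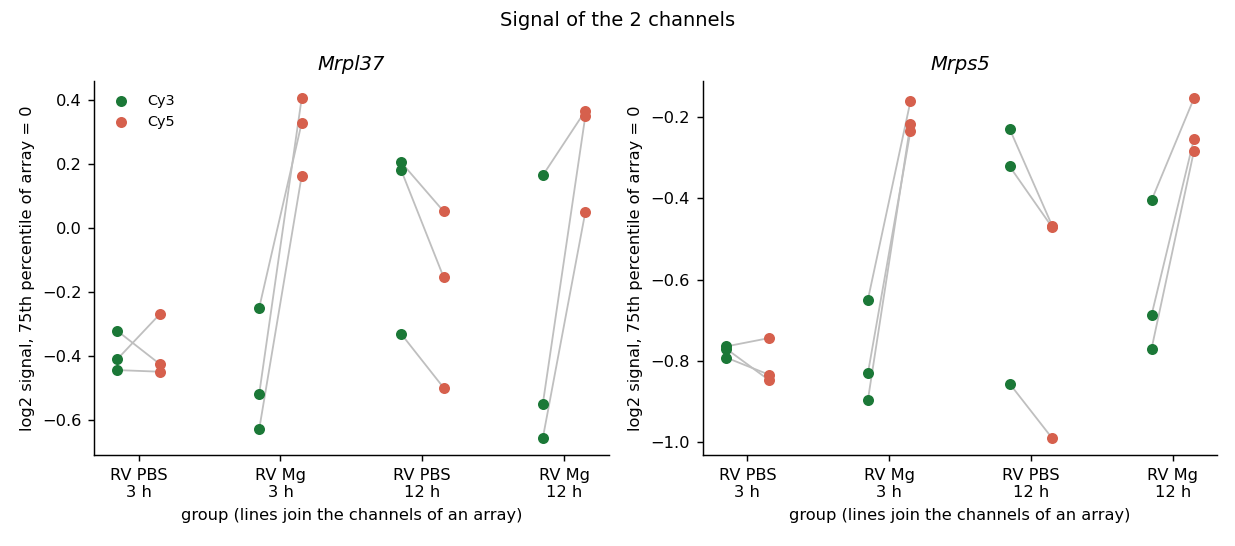
Log2 signal of Mrpl37 (left) and Mrps5 (right) in Cy3 (green) and Cy5 (red), relative to the 75th percentile of each array, on the arrays of Experiment 3 (RV PBS) and Experiment 2 (RV Mg), with grey lines joining the channels of an array. In RV Mg at 3 h the Cy5 points lie above the RV PBS Cy5 points for both genes, and the Cy3 points of the experiments overlap.

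Among the 22 genes with several probes, the probes had the same sign for 15 in HI at 3 h and for 21 at 12 h. The falls of Mrpl49, Mrps25 and Mrpl41 at 3 h therefore hold for 1 probe of each gene, whereas both probes of Mrpl15 fell at 3 h, the second by 0.59 (adjusted p = 0.0266). In Experiment 2 at 3 h the probes had the same sign for 12 of 22 genes, and the second probes of Mrps2 (0.89, adjusted p = 0.0141) and Mrps25 (-1.06, adjusted p = 0.0118) passed the test, where their brightest probes gave 0.11 and -0.36. Mrpl33, Mrpl53, Mrpl28, Mrpl14, Mrpl11, Mrpl37, Mrpl52, Mrpl55 and Mrps5 had 1 probe each. For MgSO4 at 3, 6, 12 and 24 h the probes had the same sign for 11, 14, 11 and 14 of the 22 genes. Mrpl27, Mrpl22, Mrpl10 and Mrpl4 have a second probe. Its MgSO4 values are not given here, so their MgSO4 results hold for the brightest probe.

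In all, 9 members were followed in every group whatever their values. Mrpl12, for a protein that also binds the mitochondrial RNA polymerase, averaged -0.10 and -0.21 in HI at 3 and 12 h and -0.05, -0.20, -0.30 and -0.24 over the 4 MgSO4 times. Mrpl41 averaged -0.40 and -0.51 in HI, and Mrps7 -0.12 and -0.26. Of the genes whose symbols misplace their products, Mrps30 averaged 0.06 and -0.09, Mrps18a 0.00 and 0.06, and Mrps36 -0.16 and -0.30. Of the 9 genes followed, Mrpl11 and Mrpl41 passed the test at 3 h after HI, and none passed at 12 h or in the MgSO4 groups.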

How the data were processed

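The authors hybridized RNA pools to 31 two-colour Agilent arrays on 9 slides and extracted them with Feature Extraction 10.5.1.1 (submitters' processing notes). The deposited processed intensity of each channel is background-subtracted and LOWESS dye-normalized and is given to 3 significant digits, per the file headers and the values, so some ratios are exactly 0. A value file of the series, deposited by the authors, gives log10 ratios (Cy5 over Cy3) and was used as an alternative.

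Groups came from the sample labels. Log2 ratios were computed from the processed intensities, without spots marked as non-uniform or population outliers. Probes were named through RefSeq accessions (27427 of 39429 matched, 69.6%), and 930 Rik symbols were left out. Tests were limited to probes that, in Cy3 or Cy5, exceeded background well on 66.7% or more of a group's arrays. Array number and signal over background limit the precision.

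Each group was tested against 0 in its own limma 3.58.1 fit (R 4.3.3, data.table version 1.17.8) with Benjamini-Hochberg adjustment over all probes tested. A gene was called at an adjusted p under 0.05 and a 1.5-fold change, and was also counted at the adjusted p alone. Differences between times were limma contrasts. Single channels were centred on the 75th percentile of each array. Each sample is a pool, and p-values measure the spread between arrays. The methods give 3 independent samples per time in Experiment 1, fewer than its arrays. Whether some arrays repeat a pool is not known, and if they do, its p-values are too small. The code was tested on simulated shifts: at a log2 shift of 1, 73.1% of shifted probes passed at the adjusted p in HI at 3 h and 1.49% in HI at 12 h. At a log2 shift of 0.6 these shares were 35.8% and 0%.

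The genes named were those called, the 3 with the smallest p where none was called, 9 genes followed whatever their values, the called genes of each pathway list with a few set ones, and the 3 brightest and 3 dimmest probes; others were named after their values were seen, among them the genes that passed at the adjusted p alone. The members, lists and tests were chosen with earlier results of these data known. The alternatives tried concerned outlier spots, background, filter, centring, probes, pooling of the fit, slide, replicate block, the methods' t-test and single arrays left out. Replicate numbers are shared between groups. Same-numbered samples deviated together in the channel comparisons at 3 h (r of 0.18 to 0.38 in Cy3 and 0.23 to 0.52 in Cy5) and in Cy5 at 12 h (0.27 to 0.44), while in each contrast between times at least 1 pair had an r under 0.1.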

Additional observations from a re-analysis of the deposited data

Results flagged for a closer look

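In 4 of 59 groups of values tested, 1 array stood apart from the others of its group by Dixon's criterion, which chance does in about 1 of 20 groups. Mrpl4 at 3 h after MgSO4 read -0.22 on replicate 2 and -0.15 to -0.14 on the other arrays. Mrps12 at 6 h read 0.12 on replicate 5 and -0.46 to -0.26 on the others. Mrpl11 at 12 h read 0.058 on replicate 2 and -0.29 to -0.27 on the others. On the same replicate 2 at 12 h the median of the small subunit genes was 0.10, against -0.13 to -0.10 on the others. No reason for these arrays was tested.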

How the results depend on the processing

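The median over members after HI stayed below 0 in 13 of 13 settings at 3 h (-0.16 to -0.10) and at 12 h (-0.30 to -0.16), and no call changed direction. Medians near 0 did change sign between settings, from -0.11 to 0.014 for MgSO4 at 3 h, from -0.0046 to 0.070 at 6 h, from -0.13 to 0.021 between 12 and 3 h, and from -0.095 to 0.086 between 12 and 3 h in Experiment 2. Counts of members that passed moved, and the cause was not tested beyond what each setting changes. At the adjusted p, normexp with loess gave 24 (HI 3 h), 7 with 4 called (HI 12 h), 12 (Experiment 2, 3 h) and 4 (12 h), where 25.5%, 4.38%, 10.3% and 4.34% of all genes passed. One fit over all 8 groups gave 8, 20 with 5 called, 19 and 11 with 1 called in the same order, and 12 and 4 for MgSO4 at 6 and 12 h, where 5.11%, 14.6%, 8.54%, 7.6%, 12.5% and 4.24% of all genes passed. No filter gave 0 for HI at 3 h and 0, with 0 called, for Experiment 2 at 3 h (0.146% and 1.96% of all genes), where probes above background in both channels gave 8 (11.2%). At an unadjusted p alone the methods' t-test passed 33 and 18 members (HI 3 and 12 h) and 14 and 14 (Experiment 2, 3 and 12 h). For MgSO4 at 3, 6, 12 and 24 h it passed 5, 16, 6 and 18. The shares of all genes at that rule are not given here. With the 1.5-fold change added, it called 0, 5, 2 and 0 members in the injury groups, where 3.08%, 5.07%, 4.39% and 2.48% of all genes were called. For MgSO4 it then called 0 members at each time, where 0.674%, 0.992%, 1.23% and 0.457% of all genes were called. After Benjamini-Hochberg it passed 0 for HI at 3 h and 0, with 0 called, for Experiment 2 at 3 h. Without replicates 3 and 7, MgSO4 at 6 h gave 6 (17.2% of all genes). Leaving out 1 array gave 0 to 0 (HI 3 h), 0 to 14 with 0 to 10 called (HI 12 h), and 1 to 15 with 1 to 4 called (Experiment 2, 3 h), where 1.67% to 4.75%, 0.119% to 23.2% and 4.02% to 18.3% of all genes passed. In the Cy5 comparison at 3 h it gave 1 to 3 with 0 to 2 called, quantile normalization gave 5 with 1 called, and the replicate block 21, where 2.23% to 4.93%, 10.2% and 31.3% of all genes passed. Shares of all genes called under normexp, the fit over all 8 groups, quantile normalization and single arrays left out are not given here. The replicate block gave 0 calls in the contrasts between times, in each of which at least 1 same-numbered pair had an r under 0.1. The channel medians ranged from -0.29 to -0.054 (Cy3, 3 h) and from -0.27 to -0.022 (Cy5, 12 h) when 1 array was left out, and the Cy3 median at 12 h was -0.58 with the MgSO4 controls added. A random slide block could not be fitted for groups of 3 arrays nor for MgSO4 at 12 and 24 h, and few arrays and no dye swap limit every comparison.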
